A study of Mus musculus with 14 samples.

Results

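Integrins are the receptors that hold a skin epithelial cell to the matrix beneath it, and laminins are the matrix proteins that many of them bind. Genes with numbered Itga, Itgb, Lama, Lamb and Lamc symbols, together with Itgae, Itgal, Itgam, Itgav and Itgax, were gathered by gene symbol and not by a measured value. Integrin genes with symbols of another form were not included. The set held 36 symbols, 25 integrin subunits and 11 laminin chains, among 47729 genes in the RNA-seq tables. Those 36 symbols had 37 gene identifiers, because Itgam appeared with 2, and 36 identifiers passed the filter on low counts. A mean of at least 1 CPM (counts per 1000000 counts of the library, scaled by edgeR) over all libraries was reached by 27 of them.

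An integrin is a pair of one α and one β chain, and the pairing sets which ligand is bound. In basal keratinocytes α6β4 anchors the hemidesmosome to laminin-332, which holds the Lama3 and Lamb3 chains, while α3β1 binds the same laminin at focal contacts. The αvβ6 and αvβ8 pairs bind latent TGF-beta and release the active factor. Hair follicle stem cells lie in the bulge of the follicle and are sorted by CD34 together with high α6.

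The libraries came from back skin of female mice aged 24 months, called aged, or 2 months, called young. Epidermal stem cells (EpdSC) were sorted as lineage-negative, high for integrin α6, CD34-negative and Sca1-positive. Hair follicle stem cells (HFSC) were sorted as lineage-negative, high for integrin α6, CD34-positive and Sca1-negative. Each of the 4 groups, aged EpdSC, young EpdSC, aged HFSC and young HFSC, had 2 RNA-seq libraries and 1 ATAC-seq library, which measures open chromatin. Lineage-negative, α6-positive epithelium gave 1 droplet (10x) single-cell library per age. The labels name no transgene or treatment, name the strain in 2 ways, and do not say whether libraries came from separate mice. The p-values therefore measure the spread between these libraries, which may be technical.

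The 8 RNA-seq libraries held between 25126808 and 35905505 counts. Member genes took 0.567 to 0.671% of all counts in EpdSC libraries and 0.498 to 0.588% in HFSC libraries. Both sort markers separated the populations: Cd34 lay at or below 1.81 CPM in every EpdSC library and between 1088 and 1807 CPM in the HFSC libraries, and Ly6a, which encodes Sca1, ran the other way. The 7 fibroblast markers summed to 23.8 to 60.7 CPM in EpdSC libraries and 547 to 754 CPM in HFSC libraries, and 3 of the 7 were called lower in EpdSC at each age. Nearly all of that sum was Col6a1, and Pdgfra stayed at or below 2.07 CPM, Dcn at or below 2.18 CPM and Lum at or below 0.436 CPM in every library. The 7 melanocyte markers summed to 12.0 to 18.8 CPM in EpdSC libraries and 186 to 259 CPM in HFSC libraries, and 3 of them in aged and 4 in young mice were called lower in EpdSC, Mitf, Dct and Tyrp1 at both ages. The 8 T cell markers (44.4 to 87.6 CPM in EpdSC against 3.70 to 5.63 CPM in HFSC) and the 5 Schwann markers (99.2 to 113 CPM in EpdSC against 23.2 to 35.6 CPM in HFSC) had higher sums in EpdSC, with 1 gene of each list called higher at each age and 1 Schwann gene in aged and 2 in young mice called lower. The part of these markers in the member differences between the populations was not tested. CPM is not divided by transcript length, so levels are compared between libraries and never between genes.

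Between the populations the laminin-332 chains Lama3 and Lamb3, the α6 partner Itgb4 and the broad β1 chain were not called, while Itgb8, Itgb6, Itga1 and Itga4 were lower and Lama1, Itga6 and Itga7 higher in EpdSC at both ages. In young mice 12 of 36 members differed between EpdSC and HFSC, 4 higher and 8 lower, by edgeR's quasi-likelihood test at an adjusted p under 0.05. That was 33.3% of members, beside 26.1% of all 21464 genes tested, 13.0% higher and 13.1% lower. In aged mice 12 of 36 differed again, 4 higher and 8 lower, beside 24.1% of all genes, 12.2% higher and 11.9% lower. The median log2 fold change of the members was -0.09 in young and -0.14 in aged mice, beside -0.06 and -0.09 for all genes tested. Integrins gave 3 higher and 6 lower calls of 25 in young mice, and laminins 1 higher and 2 lower of 11. In sorted bulk samples fewer cells of a type and less RNA per cell cannot be told apart.

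**Figure D1:**
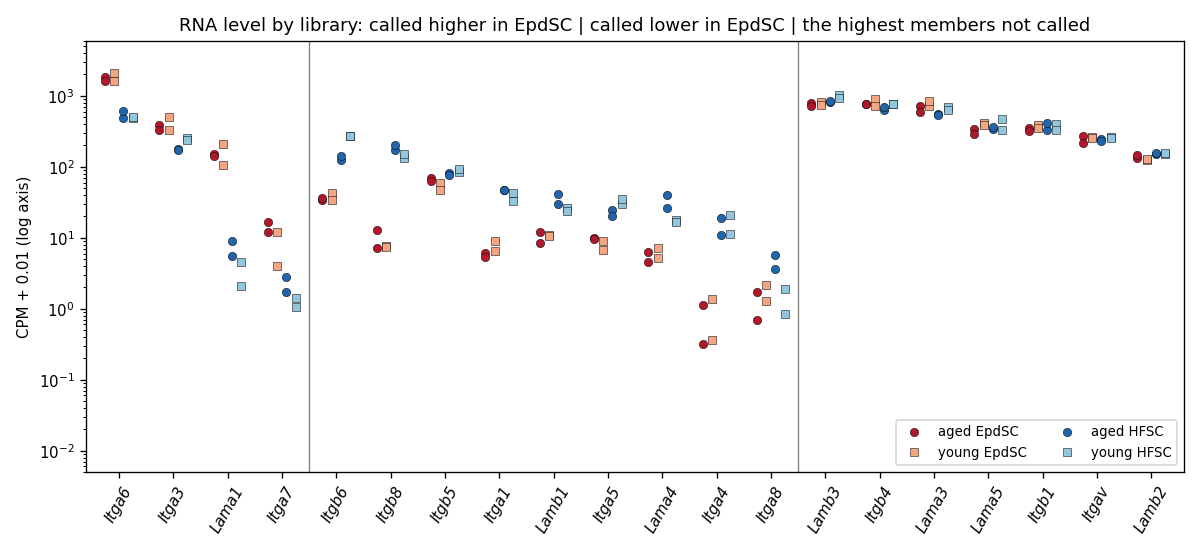
RNA level of each library, as CPM plus 0.01 on a log axis, for the called members and the highest members not called that are reported here. Points are single libraries in the order aged EpdSC, young EpdSC, aged HFSC and young HFSC within each gene, circles for aged and squares for young. Itgb8 and Itgb6 sit lower in EpdSC libraries at both ages, Lama1 and Itga6 sit higher, and Itgb4 and Lamb3 stay within a narrow band.

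Among the α subunits, Itga6 (ENSMUSG00000027111.15), the laminin receptor chain of the hemidesmosome, was itself a gate of the sort, since both populations were taken as α6-high. It had 1831 and 1616 CPM in aged EpdSC against 492 and 602 CPM in aged HFSC. In young mice it had 2108 and 1633 CPM in EpdSC against 492 and 503 CPM in HFSC. Every EpdSC library stood above every HFSC library although both were gated high. The log2 fold change was 1.66 in aged mice (SE 0.169, edgeR adjusted p = 2.19e-05) and 1.91 in young mice (SE 0.170, edgeR adjusted p = 6.52e-06).

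Itga3, the α chain of the laminin receptor α3β1, had 385 and 325 CPM in aged EpdSC against 176 and 170 CPM in aged HFSC. In young mice it had 501 and 334 CPM in EpdSC against 258 and 240 CPM in HFSC. EpdSC libraries were higher at both ages with no overlap. The log2 fold change was 1.04 (SE 0.187, edgeR adjusted p = 0.00160) in aged and 0.74 (SE 0.186, edgeR adjusted p = 0.0113) in young mice. The young call was lost without young EpdSC replicate 1, at 0.43 and an edgeR adjusted p of 0.158.

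Itga7, an α chain that pairs with β1 and is best known as the laminin receptor of muscle, had 12.2 and 16.5 CPM in aged EpdSC against 1.71 and 2.80 CPM in aged HFSC. Young EpdSC had 11.9 and 3.95 CPM against 1.03 and 1.42 CPM in young HFSC. All EpdSC libraries were above all HFSC libraries, and the 2 young EpdSC libraries were far apart. The log2 fold changes were 2.67 (SE 0.479, edgeR adjusted p = 0.00151) in aged mice and 2.70 (95% interval 1.60 to 3.80, edgeR adjusted p = 0.00175) in young mice. The 8 pericyte and smooth muscle markers summed to 86.3 to 124 CPM in EpdSC libraries and 12.0 to 36.8 CPM in HFSC libraries. Of these 8, 3 averaged more than 1 CPM, and the part of this list in the Itga7 difference was not tested.

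Other α chains ran the opposite way. Itga1, whose protein pairs with β1 to bind collagen, had 6.09 and 5.31 CPM in aged EpdSC against 47.5 and 47.5 CPM in aged HFSC. In young mice the values were 6.44 and 8.95 CPM in EpdSC against 42.9 and 32.5 CPM in HFSC. HFSC libraries were several times higher in every pairing. The log2 fold changes were -3.06 (SE 0.223, edgeR adjusted p = 1.49e-06) in aged and -2.30 (SE 0.216, edgeR adjusted p = 9.89e-06) in young mice.

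Itga5, the α chain of the fibronectin receptor, had 9.83 and 9.51 CPM in aged EpdSC against 24.5 and 20.5 CPM in aged HFSC. Young EpdSC had 9.06 and 6.81 CPM against 29.7 and 35.5 CPM in young HFSC. The HFSC libraries lay above every EpdSC library. Fold changes on the log2 scale were -1.22 (SE 0.207, edgeR adjusted p = 0.00106) in aged and -2.04 (SE 0.212, edgeR adjusted p = 2.22e-05) in young mice.

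Itga4, the α chain of receptors for VCAM1 and fibronectin, had 0.309 and 1.11 CPM in aged EpdSC against 11.0 and 19.2 CPM in aged HFSC. Young EpdSC had 0.353 and 1.38 CPM against 21.1 and 11.2 CPM in young HFSC. The gene was near the lower limit of detection in EpdSC and clearly read in HFSC. Log2 fold changes were -4.42 (SE 0.646, edgeR adjusted p = 3.49e-04) in aged and -4.24 (SE 0.634, edgeR adjusted p = 3.75e-04) in young mice. The 6 leukocyte markers, whose cells are known to use α4, summed to 4.58 to 8.82 CPM in EpdSC libraries and 4.80 to 8.72 CPM in HFSC libraries. The 9 Langerhans and myeloid markers summed to 120.3 to 191 CPM in EpdSC libraries and 186 to 317 CPM in HFSC libraries, with 0 higher and 1 lower call of 8 tested in aged mice and 4 higher and 2 lower in young mice. The melanocyte markers given above ran in the same direction as Itga4. The part of these markers in the Itga4 difference was not tested.

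Itga8, the α chain of the nephronectin receptor α8β1, was called in aged mice, at -1.97 (SE 0.566, edgeR adjusted p = 0.0248). It had 0.680 and 1.69 CPM in aged EpdSC against 3.66 and 5.66 CPM in aged HFSC, and in young mice 1.27 and 2.14 CPM in EpdSC against 1.90 and 0.826 CPM in HFSC. Aged libraries did not overlap, the young libraries did, and the change of this difference with age was not called. The aged call was lost without aged HFSC replicate 2 (edgeR adjusted p = 0.156) or aged EpdSC replicate 1 (edgeR adjusted p = 0.192).

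The β subunits held the member with the smallest p in both ages. Itgb8 (ENSMUSG00000025321.14) encodes the β chain of αvβ8. It had 7.23 and 12.7 CPM in aged EpdSC against 175 and 204 CPM in aged HFSC. In young mice it had 7.59 and 7.37 CPM in EpdSC against 133 and 151 CPM in HFSC. No EpdSC library came near any HFSC library. The log2 fold change was -4.25 in aged mice (SE 0.244, edgeR adjusted p = 2.48e-07) and -4.24 in young mice (SE 0.245, edgeR adjusted p = 2.22e-07).

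Itgb6 (ENSMUSG00000026971.15), the β chain of αvβ6, had 33.9 and 36.4 CPM in aged EpdSC against 124 and 142 CPM in aged HFSC. Young EpdSC had 43.3 and 34.4 CPM against 269 and 268 CPM in young HFSC. HFSC libraries were higher at both ages, and the young ones highest of all. Log2 fold changes were -1.92 (SE 0.157, edgeR adjusted p = 3.67e-06) in aged and -2.79 (SE 0.161, edgeR adjusted p = 2.22e-07) in young mice. Their shared α chain Itgav, by contrast, spanned 216 to 270 CPM in EpdSC and 228 to 266 CPM in HFSC. Its log2 fold change was 0.04 in aged mice (95% interval -0.28 to 0.36) and -0.01 in young mice (95% interval -0.33 to 0.31).

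Itgb5, the β chain of the vitronectin receptor αvβ5, had 58.7 and 46.9 CPM in young EpdSC against 85.6 and 91.9 CPM in young HFSC. It was lower in both young EpdSC libraries, at -0.75 on the log2 scale (SE 0.153, edgeR adjusted p = 0.00335). Aged EpdSC had 70.1 and 63.2 CPM against 82.4 and 76.7 CPM in aged HFSC, which was not called. Itgb4, the β chain of α6β4, had 764 and 779 CPM in aged EpdSC against 625 and 686 CPM in aged HFSC, and in young mice 912 and 724 CPM in EpdSC against 756 and 760 CPM in HFSC. Its young groups overlapped. The interval of its log2 fold change ran from -0.09 to 0.56 in aged mice (0.23, edgeR adjusted p = 0.300) and from -0.21 to 0.43 in young mice (0.11, edgeR adjusted p = 0.657). Itgb1, the β chain shared by most matrix receptors, spanned 316 to 392 CPM in EpdSC and 333 to 411 CPM in HFSC and was not called at either age.

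Among laminin chains, Lama1 (ENSMUSG00000032796.7), the α1 chain best known from embryonic basement membrane, was the one called higher in EpdSC. It had 151 and 142 CPM in aged EpdSC against 5.47 and 9.12 CPM in aged HFSC. Young EpdSC had 106 and 208 CPM against 2.10 and 4.52 CPM in young HFSC. Every EpdSC library stood far above every HFSC library. Log2 fold changes were 4.33 (SE 0.389, edgeR adjusted p = 7.94e-06) in aged and 5.58 (SE 0.421, edgeR adjusted p = 1.73e-06) in young mice.

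Lama4, the α4 chain known from vessel basement membrane, had 4.51 and 6.38 CPM in aged EpdSC against 26.1 and 40.2 CPM in aged HFSC. Young EpdSC had 7.15 and 5.10 CPM against 17.8 and 16.7 CPM in young HFSC. Lamb1, the β1 chain of many laminins, had 11.9 and 8.46 CPM in aged EpdSC against 29.6 and 41.3 CPM in aged HFSC, and in young mice 11.1 and 10.5 CPM in EpdSC against 25.9 and 23.6 CPM in HFSC. Both chains were lower in all EpdSC libraries. For Lama4 the log2 fold changes were -2.61 (SE 0.280, edgeR adjusted p = 3.28e-05) in aged and -1.49 (SE 0.272, edgeR adjusted p = 0.00157) in young mice. For Lamb1 they were -1.80 (SE 0.227, edgeR adjusted p = 1.18e-04) in aged and -1.20 (SE 0.225, edgeR adjusted p = 0.00192) in young mice. The 7 endothelial markers summed to 3.32 to 6.15 CPM in EpdSC libraries and 6.12 to 9.12 CPM in HFSC libraries. The part of endothelial and fibroblast markers in these laminin differences was not tested.

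The laminin-332 chains Lama3 and Lamb3 were not called between the populations. Lamb3 had 798 and 728 CPM in aged EpdSC against 808 and 840 CPM in aged HFSC, and 831 and 749 CPM in young EpdSC against 1020 and 919 CPM in young HFSC. Its log2 fold change was -0.11 in aged mice (95% interval -0.41 to 0.19) and -0.30 in young mice (95% interval -0.60 to 0.01). Lama3 had 728 and 595 CPM in aged EpdSC against 551 and 529 CPM in aged HFSC, and 728 and 837 CPM in young EpdSC against 686 and 629 CPM in young HFSC. None of these differences was called, although the libraries did not overlap at either age. EpdSC libraries lay above the HFSC ones for Lama3 and below them for Lamb3. In aged mice 28.8% of all genes lay wholly above in EpdSC and 33.8% wholly below, and in young mice 29.8% and 32.6%. The log2 fold change of Lama3 was 0.29 in aged and 0.25 in young mice. Lama5, the α5 chain of the adult epidermal laminin-511, had 337 and 285 CPM in aged EpdSC against 345 and 363 CPM in aged HFSC, and 408 and 388 CPM in young EpdSC against 326 and 465 CPM in young HFSC.

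Lamb2, Lamc1 and Itga2, also well read, spanned 123 to 148, 96.7 to 124 and 75.2 to 101 CPM in EpdSC and 150.2 to 157, 85.4 to 123 and 82.1 to 115 CPM in HFSC. None of the 3 was called in either age. Itga2b, Itga10, Itgb3 and Lama2 averaged 1.25 to 3.96 CPM and were not called. The remaining 10 identifiers, among them those of the leukocyte integrins Itgal, Itgam, Itgax, Itgae, Itgb2 and Itgb7, averaged under 1 CPM.

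**Figure D2:**
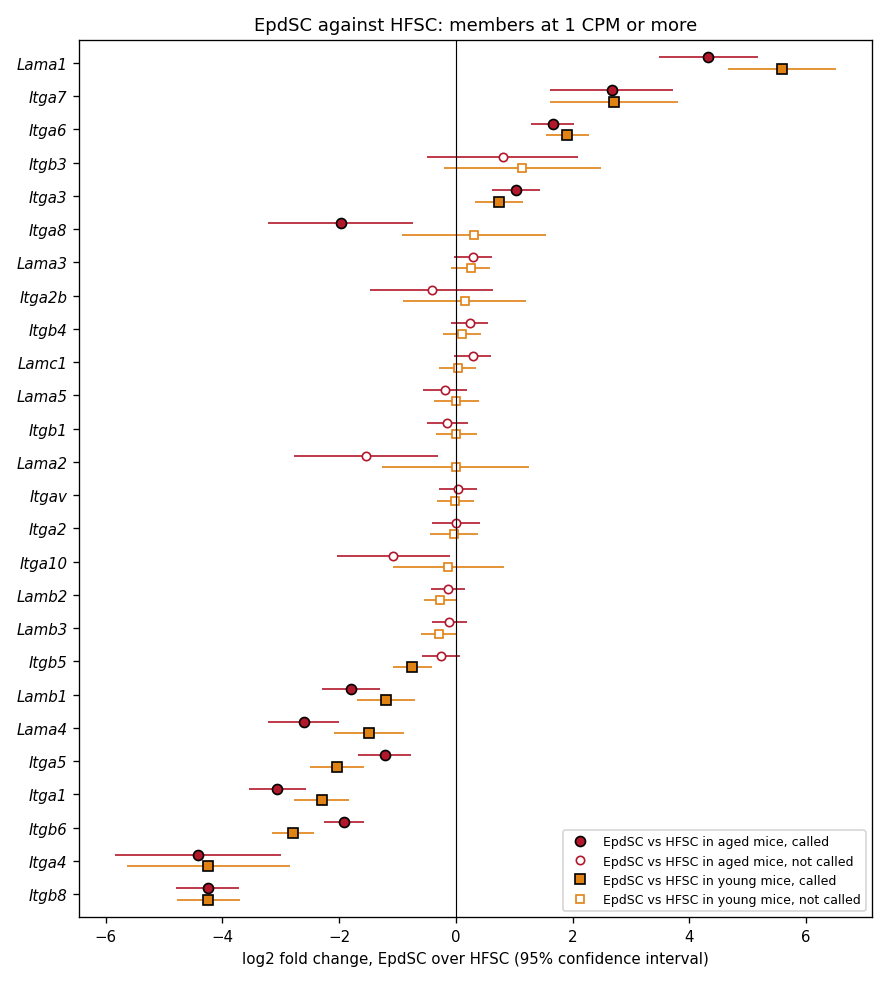
Log2 fold change of EpdSC over HFSC for the members reported here with a mean of at least 1 CPM, with 95% intervals as bars, for aged and young mice in separate colours and filled points for calls. Itgb8, Itga4, Itgb6, Itga1 and Lama4 lie to the left, Lama1, Itga7, Itga6 and Itga3 to the right, and Lama3 and Lamb3 near 0.

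Genes that work with these receptors were read from 5 lists. The shares to set beside each list are those of all genes tested. In aged mice 12.2% were higher and 11.9% lower in EpdSC, and in young mice 13.0% and 13.1%. The hemidesmosome list held 10 genes, 4 of them members, and 5 were higher and 0 lower in EpdSC at each age. Those 5 were Itga6, Itga3, the basal keratins Krt14 (log2 fold change 2.02 in aged and 2.10 in young mice) and Krt5, and the linker Plec. Basement membrane genes, a list that includes the laminin members, ran largely the other way. They gave 3 higher and 17 lower calls of 35 in aged mice and 4 higher and 16 lower in young mice. The perlecan gene Hspg2 was at -2.73 in aged and -2.67 in young mice, and the matrix glycoprotein gene Sparc at -1.77 in aged and -2.85 in young mice. The calcium-binding matrix gene Smoc2 was higher in EpdSC, at 2.72 in aged and 3.84 in young mice. The median log2 fold change of that list was -1.08 in aged and -0.76 in young mice, beside the all-gene medians given above.

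Integrin adaptors and activators gave 5 higher and 12 lower calls of 32 tested in aged mice, and 4 higher and 12 lower in young mice. Their higher calls were near the share of all genes given with the lists. The kindlin gene Fermt2, whose product activates β chains, was at -6.12 in aged and -4.41 in young mice. The actin crosslinker gene Actn1 and the tensin gene Tns2 were lower too, at -3.35 and -2.65 in aged mice and -3.18 and -2.97 in young mice. Other matrix ligands gave 5 higher and 12 lower calls of 28 in aged mice, and 4 higher and 10 lower in young mice. Tenascin-X (Tnxb) was higher at 4.30 in aged and 3.80 in young mice. Periostin (Postn), also a bulge marker, and Col6a2 were lower, at -5.62 and -8.53 in aged mice and -4.97 and -7.76 in young mice. Col1a1, Col1a2, Col3a1 and Col6a1 belong both to this list and to the fibroblast markers given above. Every fibroblast marker called lower in EpdSC was among those shared genes, so the 2 lists are not independent.

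The latent TGF-beta list, whose products form latent TGF-beta, hold it in the matrix or at the cell surface or help to activate it, gave 1 higher and 5 lower calls of 10 tested at each age. The binding proteins Ltbp1, Ltbp2 and Ltbp3 were lower in EpdSC, at -4.68, -8.10 and -2.12 in aged mice and -3.90, -8.86 and -2.37 in young mice. The ligand gene Tgfb3 was at -3.76 in aged and -2.73 in young mice. Nrros, whose product tethers latent TGF-beta to the cell surface, was higher at 1.91 in aged and 1.88 in young mice. Those 4 genes, Ltbp1, Ltbp2, Ltbp3 and Tgfb3, were called lower in EpdSC at both ages, as were the receptor chains Itgb6 and Itgb8. The fifth lower call was Thbs1 in aged and Ltbp4 in young mice.

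Age was the second comparison, and few members were called in it. In HFSC 1 of 36 members was called between aged and young mice, 2.78% of members beside 0.368% of all genes tested, and 0.0745% that were lower in aged HFSC. That member was Itgb6, which had 124 and 142 CPM in aged HFSC against 269 and 268 CPM in young HFSC. Both aged libraries lay far below both young ones, with no overlap. Itgb6 fell by 1.01 on the log2 scale (95% interval -1.35 to -0.68, SE 0.152, edgeR adjusted p = 0.0240). The call was lost without aged HFSC replicate 1 (edgeR adjusted p = 0.0573) or aged HFSC replicate 2 (edgeR adjusted p = 0.0732), and in a fit of the HFSC libraries alone (edgeR adjusted p = 0.0704). Over all alternatives the log2 fold change stayed between -1.11 and -0.93. Markers of other epithelial cells moved in the same libraries. Of the 9 suprabasal markers, 7 had an unadjusted p under 0.05, all 7 higher in aged HFSC and 0 called, and the list summed to 845 and 1195 CPM in aged HFSC against 661 and 1031 CPM in young HFSC. Of the 8 interfollicular basal markers, 7 had an unadjusted p under 0.05, 5 higher and 2 lower, and Ly6d was called higher. They summed to 6824 and 9611 CPM in aged HFSC against 6345 and 6429 CPM in young HFSC. Of the 12 sebaceous markers, 9 had an unadjusted p under 0.05, all 9 higher, and Far2 was called. The 11 bulge markers summed to 17638 and 18300 CPM in aged HFSC against 17244 and 20045 CPM in young HFSC, with Ltbp1 called lower. The sort marker Cd34 (-0.63) and Fgf18 (-1.09) were also lower at an unadjusted p under 0.05 but not called. No bulge marker was higher at that p. Itgb6 was itself low in EpdSC, and the part of these markers in its fall was not tested.

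**Figure D3:**
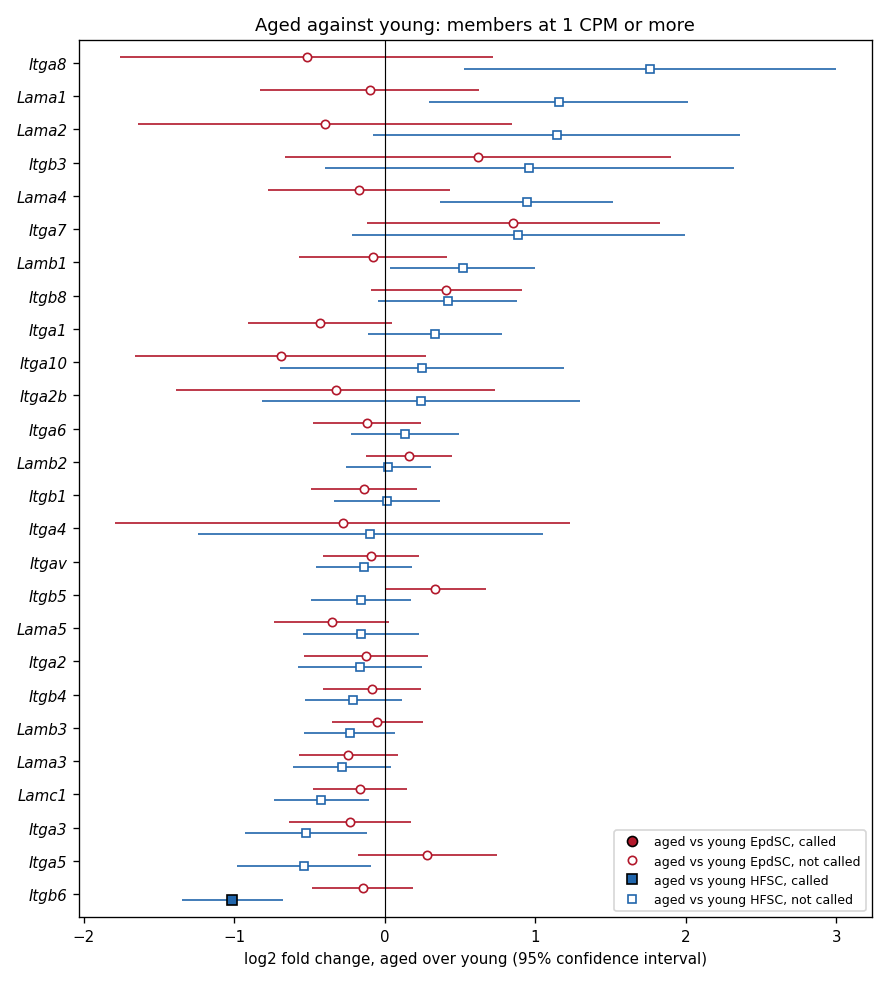
Log2 fold change of aged over young for the members reported here with a mean of at least 1 CPM, with 95% intervals as bars, for EpdSC and HFSC in separate colours and filled points for calls. Itgb6 in HFSC at -1.01 is the single filled point, and most intervals cross 0.

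In EpdSC 0 members were called with age, beside 0.0839% of all genes, and DESeq2 also called 0. An unadjusted edgeR p under 0.05 was reached by 2 members, Itgb2 and Itgb5. Over both populations edgeR called 0 members, beside 0.391% of all genes, and DESeq2 called 1, Itgb6. There 7 members had an unadjusted p under 0.05, and Itgb6 was at -0.58 with an edgeR adjusted p of 0.0511. The difference between the age effects of EpdSC and HFSC gave 0 member calls by edgeR and by DESeq2, beside 0.00466% of all genes, with 7 members at an unadjusted p under 0.05. For Itgb6 that difference was 0.87 on the log2 scale (SE 0.215, edgeR adjusted p = 0.453), so the age effect was not shown to differ between the populations.

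In HFSC 9 members had an unadjusted p under 0.05, and 8 of them were not called after adjustment. The vessel laminin Lama4 had 26.1 and 40.2 CPM in aged HFSC against 17.8 and 16.7 CPM in young HFSC, at 0.94 (edgeR adjusted p = 0.215). Lama1 had 5.47 and 9.12 CPM in aged HFSC against 2.10 and 4.52 CPM in young HFSC, at 1.16 (edgeR adjusted p = 0.377). The aged libraries were higher without overlap for both. Itga3 was at -0.52 (edgeR adjusted p = 0.412) and Lamc1, the γ1 chain of most laminins, at -0.42 (edgeR adjusted p = 0.376). The 12 sebaceous markers summed to 665 and 863 CPM in aged HFSC against 380.5 and 462 CPM in young HFSC, and the suprabasal and interfollicular basal markers given beside Itgb6 moved in the same libraries. Lama1 was itself high in EpdSC, and the part of these markers in the laminin values was not tested. Aged libraries lay wholly above the young ones for 10 members and wholly below for 10 of 36, beside 18.0% and 17.4% of all genes tested.

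The anchoring receptor chains were not called with age. Itga6 was at 0.14 in HFSC (edgeR adjusted p = 0.981), and Itgb4 at -0.09 in EpdSC (95% interval -0.41 to 0.24) and -0.21 in HFSC (95% interval -0.53 to 0.11). The hemidesmosome list had 0 calls in EpdSC and in HFSC. Basement membrane genes had 1 call with age in HFSC, Ntn4, a netrin that binds laminin γ chains. Ntn4 had 30.2 and 36.8 CPM in aged HFSC against 13.2 and 16.5 CPM in young HFSC, with no overlap. It rose by 1.18 (SE 0.189, edgeR adjusted p = 0.0317), and the call was lost in 3 of the alternative fits.

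Over both populations the collagen IV chains Col4a1 and Col4a2, which form the sheet to which laminins are tied, were called lower with age. Col4a1 had 26.8 and 18.1 CPM in aged EpdSC against 41.0 and 51.7 CPM in young EpdSC, and 83.4 and 95.5 CPM in aged HFSC against 143 and 163 CPM in young HFSC. All aged libraries lay below the young ones of their population. Col4a1 fell by 0.91 (SE 0.140, edgeR adjusted p = 0.0210) and Col4a2 fell by 0.87 (SE 0.153, edgeR adjusted p = 0.0431). The Col4a1 call was lost in 1 alternative fit, at an edgeR adjusted p of 0.0564, and the Col4a2 call in 5. Of the adaptors, Bcar1 (-0.72, edgeR adjusted p = 0.0480) was the 1 call over both populations, lost in 8 alternative fits.

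Ltbp1, which ties latent TGF-beta to the matrix from which αvβ6 releases it, was the 1 gene of its list called with age. It had 2.26 and 3.78 CPM in aged EpdSC against 14.1 and 11.9 CPM in young EpdSC, and 77.8 and 76.9 CPM in aged HFSC against 195 and 194 CPM in young HFSC. In EpdSC it fell by 2.11 (edgeR adjusted p = 0.00540), lost in a fit of the EpdSC libraries alone (edgeR adjusted p = 0.114). In HFSC it fell by 1.33 (edgeR adjusted p = 0.0181), lost without aged HFSC replicate 2 (edgeR adjusted p = 0.111). Itgb6 and Ltbp1 thus both fell in the same aged HFSC libraries, while Itgb8 was at 0.42 (95% interval -0.04 to 0.88, edgeR adjusted p = 0.724).

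Open chromatin was read at the starts of 23 members with a RefSeq promoter entry, and 13 members had none, Itga6, Itgb4 and Lama1 among them. Counts lay within 1000 bases of a start, for each member the start with the highest summed level, in 1 library per group, so intervals cover counting error only and no test was made. The ATAC libraries held 23376172 counts for aged EpdSC, 37912498 for young EpdSC, 8456209 for aged HFSC and 26694946 for young HFSC. In young mice 0 of 22 comparable members were at least 2-fold higher in EpdSC with intervals apart, beside 6.55% of all promoters. Lower in EpdSC by that rule were 2, Itgb8 and Itga4, beside 3.11% of all promoters. Levels here are CPM of the ATAC library. Itgb8 had 9.89 CPM at its start in young EpdSC against 30.8 in young HFSC, a log2 ratio of -1.59. Itga4 had 1.77 in young EpdSC against 7.30 in young HFSC, a log2 ratio of -1.78. Those were 2 of the receptor genes with less RNA in EpdSC.

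The sequences before the starts that carried these differences, with those of Itgb6 and Itga3 for comparison, are shown so that the starts can be compared. Each is the 250 bases before a start, from RefSeq on GRCm38.p6, written in the direction of transcription. Capitals mark a GC box, GGGCGG on either strand. Itgb8 lies at chr12:119238277-119238526 on the minus strand and Itga4 at chr2:79255176-79255425 on the plus strand. The outer start of Itgb6 has chr2:60722604-60722853 and the inner start chr2:60673694-60673943, both on the minus strand. Itga3 lies at chr11:95076715-95076964 on the minus strand.
Itgb8: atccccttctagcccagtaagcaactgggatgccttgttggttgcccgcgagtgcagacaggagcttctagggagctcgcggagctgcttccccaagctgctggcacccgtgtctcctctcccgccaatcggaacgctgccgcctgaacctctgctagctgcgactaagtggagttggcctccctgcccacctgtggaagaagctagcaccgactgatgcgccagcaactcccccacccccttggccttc
Itga4: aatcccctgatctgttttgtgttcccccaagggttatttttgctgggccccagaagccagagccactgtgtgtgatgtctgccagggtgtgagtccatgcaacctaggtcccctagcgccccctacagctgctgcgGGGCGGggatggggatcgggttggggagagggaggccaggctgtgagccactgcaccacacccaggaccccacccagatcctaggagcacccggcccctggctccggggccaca
Itgb6, outer start: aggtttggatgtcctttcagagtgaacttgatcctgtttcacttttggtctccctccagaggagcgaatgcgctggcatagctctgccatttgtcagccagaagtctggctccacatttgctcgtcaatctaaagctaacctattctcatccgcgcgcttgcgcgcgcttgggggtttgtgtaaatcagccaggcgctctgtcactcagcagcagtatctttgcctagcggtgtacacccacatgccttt
Itgb6, inner start: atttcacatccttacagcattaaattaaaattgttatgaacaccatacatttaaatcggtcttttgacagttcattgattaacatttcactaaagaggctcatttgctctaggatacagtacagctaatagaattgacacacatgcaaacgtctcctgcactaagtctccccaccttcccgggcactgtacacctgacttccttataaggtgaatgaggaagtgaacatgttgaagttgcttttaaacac
Itga3: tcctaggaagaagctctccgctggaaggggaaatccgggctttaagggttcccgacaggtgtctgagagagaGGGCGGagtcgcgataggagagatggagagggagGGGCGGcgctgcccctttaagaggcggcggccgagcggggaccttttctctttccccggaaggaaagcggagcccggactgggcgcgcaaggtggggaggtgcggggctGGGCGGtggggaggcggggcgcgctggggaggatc

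The Itgb8 sequence was 62.4% G and C with 12 CpG pairs, that of Itga4 64.0% with 6, and that of Itga3 67.6% with 22. The outer Itgb6 sequence was 52.0% with 11 CpG pairs and the inner 38.0% with 3, beside a median of 52.4% and 6 over 27025 promoters. Motifs were searched on both strands. The TATA box TATAAA stood in 12.6% of all promoters, the GC box GGGCGG in 33.7%, the AP-1 site TGANTCA in 6.77%, the LIM homeobox core TAATTA in 4.91% and the TEAD site GGAATG in 12.5%. Itga4 held 1 GC box and Itga3 held 3, while Itgb8 and both Itgb6 sequences held none of the 5 motifs in this window.

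In aged mice 8 of 20 comparable members were higher in EpdSC, 40.0% of them, beside 36.6% of all promoters, and the all-promoter median was itself shifted to 0.83. The aged HFSC library was the shallowest, and with scaling by the median of ratios 0 members were higher. Itgb8 was the 1 member lower in EpdSC under both scalings, at 9.28 CPM against 21.3 in aged HFSC, a log2 ratio of -1.16, beside 3.22% of all promoters lower. With median-of-ratios scaling the Itgb8 ratio was -2.12, and Itga4 (-1.76) and Itga2b (-1.22) were lower too. Itga2b rested on 12 counts in aged EpdSC and 9 in aged HFSC. In young mice it had 0.818 CPM in EpdSC against 0.450 in HFSC, the other direction, with overlapping intervals.

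**Figure D4:**
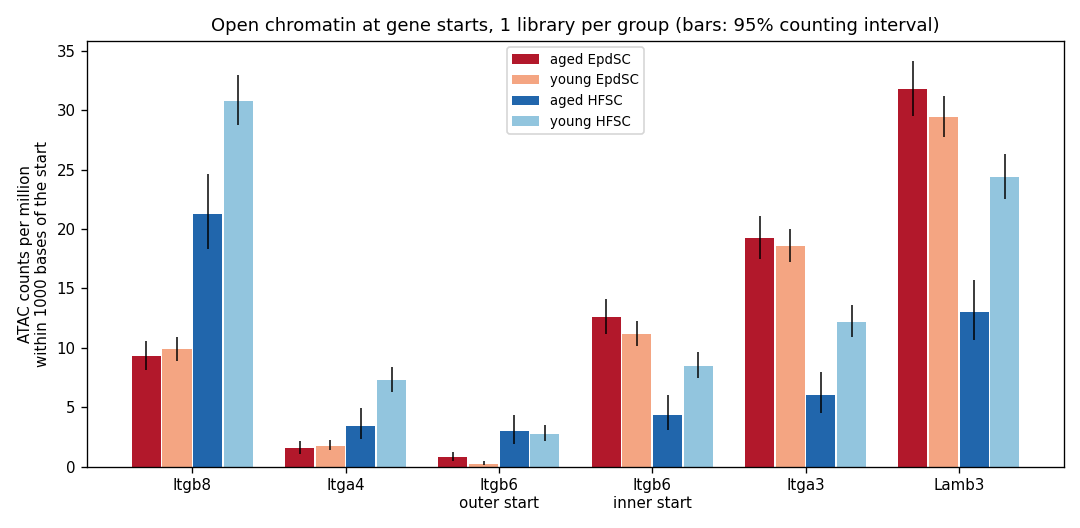
ATAC level, in CPM within 1000 bases of the start, of named members as bars with exact Poisson intervals as lines, for aged EpdSC, young EpdSC, aged HFSC and young HFSC from left to right. Itgb8 and the outer Itgb6 start pass the rule as lower in EpdSC at both ages and Itga4 in young mice, whereas the inner Itgb6 start passes it as higher in aged mice, a call that is lost with median-of-ratios scaling.

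Itgb6 had 2 annotated starts, and the outer one was lower in EpdSC by the rule at both ages. At the outer start aged EpdSC had 0.770 CPM (95% interval 0.456 to 1.22) against 2.96 in aged HFSC (1.91 to 4.36). Young EpdSC had 0.237 there (0.109 to 0.451) against 2.77 in young HFSC (2.18 to 3.48), on 9 and 74 counts. With median-of-ratios scaling the outer start was lower in EpdSC too, at log2 ratios of -2.17 in aged and -1.99 in young mice. At the inner start the levels were 12.6 in aged EpdSC against 4.38 in aged HFSC and 11.2 in young EpdSC against 8.50 in young HFSC. The inner start was higher in EpdSC by the rule in aged mice, at a log2 ratio of 1.42, but not with median-of-ratios scaling, at 0.48. In young mice it did not pass the rule, at 0.37. The outer start thus had the higher ATAC level in HFSC, where Itgb6 RNA was also higher, and its intervals in aged and young HFSC overlapped. With age, 0 of 22 members changed by the rule in EpdSC, beside 0.299% of all promoters, and 0 of 20 in HFSC, beside 17.6%. The median log2 ratio, aged over young HFSC, was -0.51 for the members and -0.59 for all promoters, so both were shifted alike.

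Windows of 500 bases within each gene and 20000 bases to either side were also compared, and a window was counted as open where one library of the pair reached 4 CPM. Lower in EpdSC by 4-fold in young mice were 3 of 6 open windows at Itgb8, beside 11.9% of all open windows of the genome. One of them, chr12:119228001-119228500, had 0.86 CPM in aged EpdSC and 1.53 in young EpdSC against 5.44 in aged HFSC and 8.54 in young HFSC. At Itga5 2 of 13 open windows were higher and 2 lower in EpdSC in young mice. Of the lower ones, chr15:103362501-103363000 had 0.21 in aged EpdSC and 0.08 in young EpdSC against 3.55 in aged HFSC and 10.0 in young HFSC. Of the higher ones, chr15:103346001-103346500 had 6.46 in aged EpdSC and 6.49 in young EpdSC against 0.47 in aged HFSC and 0.79 in young HFSC. In aged mice 3 of 10 open windows at Itga5 were higher and 0 lower, beside 19.3% and 3.30% of all open windows. Higher in EpdSC in young mice were 2 of 19 open windows at Itga6, near the 9.35% of all open windows. One, chr2:71788501-71789000, had 4.36 in aged EpdSC and 4.56 in young EpdSC against 0.24 in aged HFSC and 0.52 in young HFSC. In aged mice 7 of 21 at Itga6 were higher, and 1 of 3 at Itgb8 was lower. Window levels were scaled by library totals only. Median-of-ratios scaling, under which the higher calls at starts in aged mice were lost, was not applied to these window counts. Some single windows ran against the RNA, among counts too small to be read as a result about Itgb6 or Itga1. At Itgb6 1 of 24 was higher and 2 lower in young mice, beside 9.35% and 11.9% of all open windows. In aged mice 4 of 16 were higher and 0 lower there, beside 19.3% and 3.30%. At Itga1 1 of 8 in young and 1 of 6 in aged mice were higher, and 0 lower, beside the same shares.

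Single cells placed the same receptors within the epithelium. After filters 4469 aged and 4038 young cells remained, with median depths of 2271 and 3923 UMIs, and 33 cell barcodes occurred in both libraries. Cells were clustered with the members left out, giving 14 clusters, and all levels below are CPM of the UMIs in that cluster and library, with 1 library per age and no test. The bulge-like cluster, named by Cd34 and other bulge markers, held 249 aged and 323 young cells. A difference of at least 2-fold, with intervals apart and at least 20 UMIs in the higher, was taken as a difference.

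Itgb6 stood at 31.0 in young bulge-like cells against 3.40 in all other young cells, a ratio of 9.11 (95% interval 5.52 to 14.7). In aged cells it stood at 29.8 against 4.83, on 12 UMIs. Between the ages the bulge-like ratio, aged over young, was 0.96 (0.44 to 1.97), an interval that includes both no change and the fall seen in sorted HFSC. Itgb8 stood at 24.1 in young bulge-like cells against 6.68 in other young cells, a ratio of 3.61 (2.15 to 5.80), and at 24.9 in aged bulge-like cells on 10 UMIs. It was as high or higher in follicle junction-like cells, at 35.6 in aged and 34.0 in young cells. Itgb5 stood at 52.2 in aged bulge-like cells against 18.6 in other aged cells, a ratio of 2.81 (1.70 to 4.42). By this rule 2 of 14 comparable members were higher in young bulge-like cells, beside 6.99% of genes, and 1 of 14 in aged ones, beside 4.87%. In barcodes of at most 50 UMIs, which hold free RNA, Itgb6 stood at 11.5 in the aged and 13.2 in the young library and Itgb8 at 9.96 and 14.6, above their level in several clusters.

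**Figure D5:**
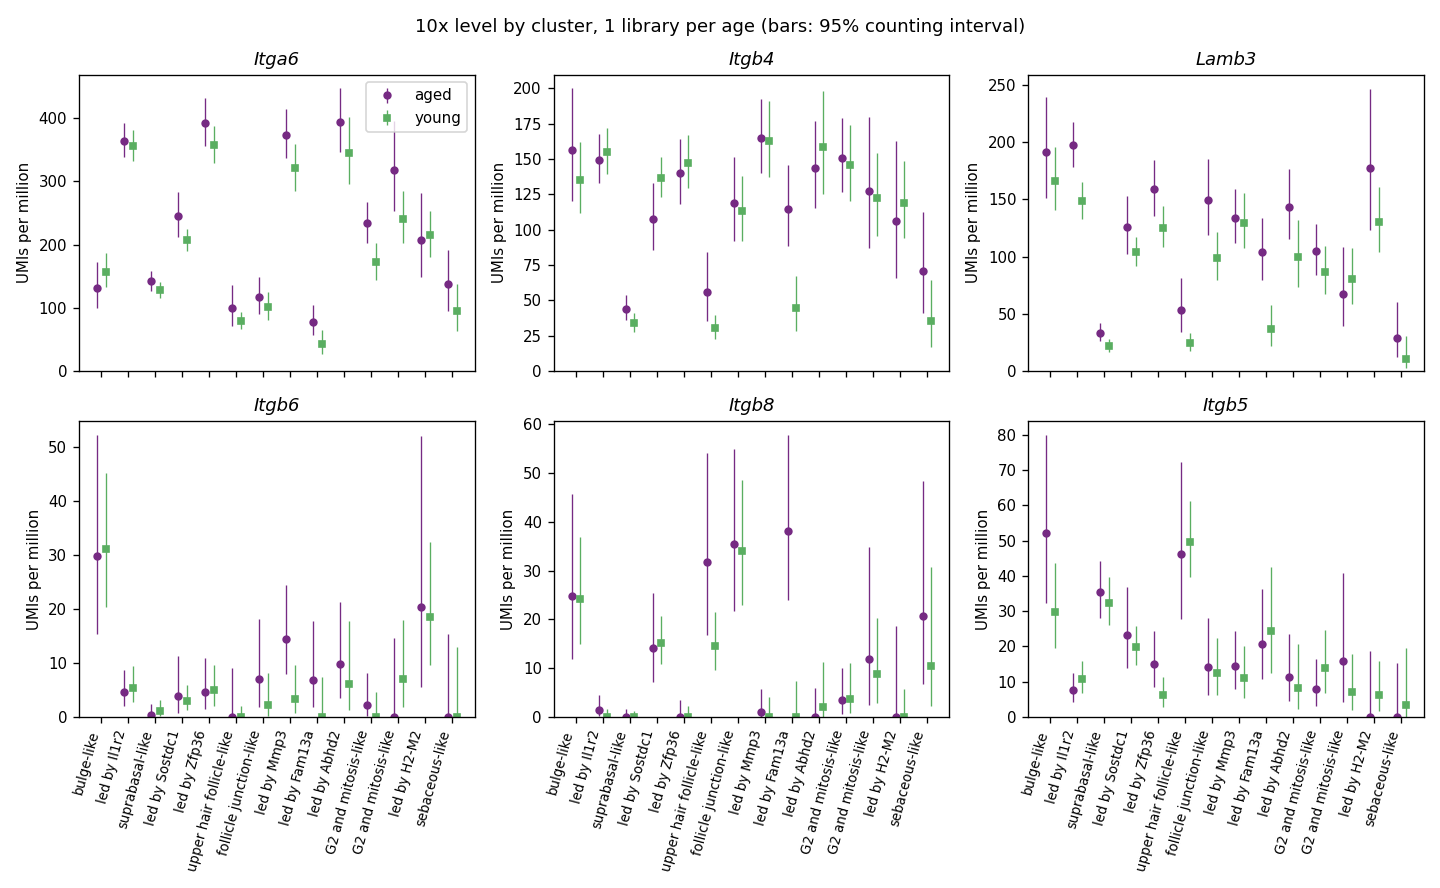
Level of named members, in UMIs scaled to CPM, in each of the 14 clusters, as points with exact Poisson intervals, aged and young side by side. Itgb6 is highest in the bulge-like cluster, Itgb8 is high in the bulge-like and follicle junction-like clusters at both ages and in 2 more in aged cells, whereas Itga6 is higher in the clusters led by Il1r2, Zfp36, Mmp3 and Abhd2.

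Itga6 was lower in bulge-like cells than in several unnamed clusters. The cluster led by Il1r2 and Igfbp3 had 365 in aged cells against 132 in aged bulge-like cells, a ratio of 2.76 (2.09 to 3.73). In young cells it had 356 against 157, a ratio of 2.26 (1.89 to 2.73). Clusters led by Zfp36, by Mmp3 and by Abhd2 ranged from 374 to 395 in aged and from 321 to 357 in young cells.

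The anchoring genes were lower in suprabasal-like cells, which have left the basement membrane, than in bulge-like cells. Itgb4 had 43.9 in aged suprabasal-like cells against 157 in aged bulge-like cells, and 33.7 against 135 in young ones. Lamb3 had 33.2 against 192 in aged cells and 21.6 against 166 in young cells. Itgb1 had 27.0 against 99.5 in aged cells and 25.5 against 118 in young cells. The upper hair follicle-like cluster was low for the same genes, with Itgb4 at 56.0 in aged and 30.4 in young cells.

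Between the ages, over all cells, 3 of 23 comparable members passed the rule, beside 4.19% of genes. Itga7 stood at 1.97 in aged against 0.646 in young cells, Itgb3 at 2.77 against 1.23 and Lama2 at 1.88 against 4.05, each on at most 69 UMIs, and none passed once each cell was thinned to 1000 UMIs. In the cluster led by Fam13a and Cldn10, with 330 aged and 104 young cells, Lamb3 had 104 in aged against 36.4 in young cells and Itgb4 114 against 44.5. The same cluster had 22 UMIs of Itgb8 in aged and 0 in young cells. In upper hair follicle-like cells Lamb3 had 53.6 in aged against 24.2 in young cells. Median depth was 1561 UMIs in aged and 4264.5 in young cells of the Fam13a cluster. It was 1904 and 3797 in upper hair follicle-like cells. In barcodes of at most 50 UMIs Lamb3 stood at 142 in the aged and 112 in the young library, and Itgb4 at 152 and 134. The part of depth and free RNA in these cluster differences was not tested, and no share of all genes is given for them.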

How the data were processed

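RNA-seq, ATAC-seq and 10x values were raw counts deposited by the authors: reads per gene, reads per 500-base window and UMIs per gene and barcode. The submitters' processing notes name STAR, Bowtie, Cell Ranger and mm10; no source used here gives versions or the strand setting, so reads of overlapping antisense genes cannot be told apart.

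Member symbols and gene lists were chosen with earlier results of these data known. One edgeR 4.0.16 fit (R 4.3.3, limma 3.58.1, quasi-likelihood test, TMM scaling, filterByExpr) covered all 8 libraries and 21464 genes, with Benjamini-Hochberg adjustment over all of them at 0.05 and no replicate block; its common biological coefficient of variation was 0.277. CPM are TMM-adjusted. DESeq2 1.42.0 was an alternative. Members called in any contrast, Itga6, Itgb4 and the 8 members with the highest mean CPM were named with full values; a level per length was intended, but no gene lengths were given. From each list up to 4 called genes with the smallest p were eligible for naming; 1 member and 1 list gene that these rules name are not reported here. Comparisons that use the same libraries are not independent.

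ATAC counts were summed in non-overlapping windows within 1000 bases of a start, with a pseudocount of 0.5 CPM in ratios, and compared where a pair held 20 counts or more. Barcodes were kept as cells when their UMIs reached one part in 10 of the 99th percentile over the top 4000 barcodes, with at least 500 genes and at most 10% mitochondrial UMIs. Cells were clustered without the members (Python 3.11.15, scanpy 1.11.5, leidenalg 0.10.2, resolution 1). The labels state 4000 captured cells per library. The doublet caller marked 1 aged and 3 young cells, too few for its calls to be relied on, so none were removed. The rule for naming clusters from marker lists was completed after values were seen, and rebuilt names may differ from the study's. Intervals are exact Poisson or exact binomial ones at 95% and cover counting error only.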

Additional observations from a re-analysis of the deposited data

Results flagged for a closer look

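For 3 members the aged libraries lay apart from the young ones in opposite directions in EpdSC and HFSC. For the collagen receptor chain Itga1 the age effect was -0.43 in EpdSC and 0.33 in HFSC on the log2 scale, a difference of -0.76 (SE 0.297, edgeR adjusted p = 0.961). For the fibronectin receptor chain Itga5 it was 0.28 in EpdSC and -0.54 in HFSC, a difference of 0.82 (SE 0.291, edgeR adjusted p = 0.841). For the vitronectin receptor chain Itgb5 it was 0.34 in EpdSC and -0.16 in HFSC, a difference of 0.49 (SE 0.215, edgeR adjusted p = 1.00). None of the 3 differences was called after adjustment, and with 2 libraries per group each split rests on 4 libraries per population.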

How the results depend on the processing

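The 12 member calls between EpdSC and HFSC at each age stayed between 11 and 12 when each library was left out in turn, and every other planned setting left 12, except 13 in young mice with no composition factor, where Lamb3 was added. Age calls in HFSC (1 with the settings reported) numbered 2 with DESeq2, 4 with no filter on low counts, 0 in a fit of only those groups and 0 to 1 with a library left out. Over both populations (0 as reported) they numbered 1 with no composition factor, 1 with DESeq2, 3 with no filter and 0 to 1 with a library left out; the difference between the age effects (0) numbered 1 with no filter. Same-numbered libraries correlated at -0.165 to 0.201, which with 2 libraries per group cannot show whether replicate numbers paired the samples. With a replicate block 1 member was called with age in HFSC, 0 in EpdSC and 1 over both populations. Of all 21464 genes that fit called 160, 23 and 149, against 79, 18 and 84 with the settings reported.

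ATAC starts, aged over young HFSC, numbered 2 higher with median-of-ratios scaling, and 3 lower within 500 bases and 2 lower with a pseudocount of 0.1 CPM, against 0 in each direction as reported. For EpdSC over HFSC 1 was higher in young mice within 2000 bases (0 as reported). In aged mice 0 were higher with median-of-ratios scaling (8 as reported), and 2, 3 and 2 were lower within 2000 bases, with that scaling and with a pseudocount of 0.1 CPM (1 as reported). In single cells, bulge-like against the rest gave 3 members in aged cells at resolution 0.5 (1 as reported). In young cells it gave 1 at resolution 0.5, 1 with at least 1000 genes per cell and 0 after thinning (2 as reported). Aged against young over all cells gave 0 with at least 1000 genes and 0 after thinning (3 as reported). Leaving out the 5% of cells with the highest doublet scores was chosen after seeing the data and gave 1, 2 and 2 members in these 3 comparisons. The causes of these shifts were not tested.

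Of the values of single genes under the alternatives, 25 were no longer past their threshold and 12 were marked as moved. Moved means a 10x ratio outside its counting interval, or a change of sign in an RNA value that was not called. For example, the log2 fold change of Itga6 with age in EpdSC ranged from -0.28 to 0.06. That of Itgb4 between the populations in young mice ranged from -0.06 to 0.28. Among called RNA values and 10x ratios past the rule, 0 reversed. A level per length was not run, since no lengths were given. The limits are 2 RNA-seq libraries per group, 1 ATAC-seq library per group, the shallow aged HFSC ATAC library, and 10x levels that rest on few UMIs for Itgb6 and Itgb8.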

Other observations

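Lama4, which had more RNA in sorted HFSC than in EpdSC, had its highest single-cell level in the sebaceous-like cluster at both ages. There it stood at 53.9 CPM of UMIs in the aged library and 49.2 in the young library, on 13 and 14 UMIs, and at 3.13 and 3.81 over all aged and all young cells. In the young bulge-like cluster it stood at 6.89 on 6 UMIs. Lamb1 stood at 22.5 in aged and 24.3 in young cells of the cluster led by Fam13a and Cldn10, and at 3.31 and 1.76 over all aged and all young cells. The cluster levels rest on at most 14 UMIs each, and the levels over all cells on 30 to 65 UMIs.

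Itgam, a myeloid integrin, was listed under 2 identifiers. The identifier ENSMUSG00000108596 stood at 21.1 CPM of UMIs over aged and 14.7 over young cells, and at 58.2 and 52.9 in barcodes of at most 50 UMIs. In the RNA-seq libraries the same identifier lay at or below 0.423 CPM. The other identifier, ENSMUSG00000030786.18, lay at or below 0.560 CPM in RNA-seq.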
